A study of Mus musculus with 3 samples.

Results

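The collagen chains were read gene by gene in single-cell RNA sequencing of injured muscle and its implant. The 44 genes whose symbol is Col, a number, a and a number with nothing after it, from Col1a1 to Col28a1, were taken from the 32285 genes of each matrix, with no use of their values. Wildtype C57BL/6 mice, an inbred strain, had a volumetric muscle loss, the surgical removal of a block of the quadriceps, with polycaprolactone (PCL) particulate, a polyester, placed in the defect, and muscle and implant were taken at week 6. All 3 libraries (replicates 1 to 3) belong to this 1 group, with no sham, uninjured or implant-free samples, and comparisons were therefore between cell classes of the same libraries. Magnetic sorting removed dead cells and split the rest by CD45, a leukocyte surface protein. Both fractions were remixed 1:1, so the share of immune cells need not be that of the tissue. Cells named immune-like below were 2155, 1166 and 1587 of the 5652, 7693 and 4605 kept cells of replicates 1, 2 and 3. Whether each replicate is its own animal is not stated in the labels. The p-values therefore reflect the spread among 3 samples only, and that spread may be technical.

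A collagen is built of 3 polypeptide chains wound into a triple helix, and the chains of a type can be products of different genes. Fibrillar collagens such as types I and III form the load-bearing fibrils of scar and tendon, type IV forms the sheet of basement membranes around vessels and muscle fibres, and type VI forms beaded filaments next to cells. Other families decorate fibrils (the fibril-associated FACIT chains, such as Col12a1 and Col14a1), link basement membranes to the matrix (multiplexins Col15a1 and Col18a1), form short-chain networks (type VIII) or span the cell membrane (Col13a1, Col17a1, Col23a1 and Col25a1).

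The matrices held 6068, 8643 and 4996 barcodes and 136519688, 192348779 and 104482261 UMIs (unique molecular identifiers, 1 per captured RNA molecule), and 17950 cells passed the filters. Replicate pairs shared 10 to 13 barcodes. Cells were clustered without any collagen chain or any gene of the pathway lists, and clusters were named from marker lists as "X-like" classes. The summed markers of the stromal-like classes were highest in their own class for the tenocyte, endothelial, lymphatic endothelial, mural, glial, muscle fibre and satellite or myoblast lists. The exception was the fibroblast list, which summed to 13073, 14107 and 14280.5 CPM in fibroblast-like cells and to 16134, 20207 and 16156 in tenocyte-like cells, while the tenocyte list summed to 809, 812 and 650.0 and 20496, 19496 and 20401. A level is given as CPM, the chain's UMIs scaled by the total UMIs of the class in that library, as mean ± SD over the 3 libraries. Because 3′ libraries count 1 end of each molecule, CPM was not divided by gene length. Capture can differ between genes, whether introns were counted is not given, and any effect of gene length was not tested.

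The bases just before the gene start are shown for 6 chains that each lead a pattern described below: Col3a1, Col5a3 and Col24a1 of fibroblast-like cells, Col15a1 of endothelial-like cells, Col4a6 of mural-like cells and of 1 fibroblast state, and Col11a1 of tenocyte-like cells. The windows are the 100 bases before the RefSeq gene start (GRCm38.p6), 5′ to 3′ on the gene's strand, and none overlaps an annotated exon. Capitals mark a GC box (GGGCGG, or CCGCCC where it lies on the other strand) or, at the start of the Col11a1 window, ATTGG, which is CCAAT on the other strand.
Col3a1: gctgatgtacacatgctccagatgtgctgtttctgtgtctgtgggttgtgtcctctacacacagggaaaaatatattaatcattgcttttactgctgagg
Col5a3: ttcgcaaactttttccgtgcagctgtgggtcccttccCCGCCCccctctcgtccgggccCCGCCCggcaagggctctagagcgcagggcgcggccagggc
Col24a1: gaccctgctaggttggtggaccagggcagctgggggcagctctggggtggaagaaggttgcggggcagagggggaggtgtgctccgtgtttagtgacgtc
Col15a1: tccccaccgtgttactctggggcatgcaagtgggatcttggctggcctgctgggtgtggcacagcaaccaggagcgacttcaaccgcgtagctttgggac
Col4a6: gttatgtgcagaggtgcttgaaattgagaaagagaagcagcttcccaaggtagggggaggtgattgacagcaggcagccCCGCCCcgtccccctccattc
Col11a1: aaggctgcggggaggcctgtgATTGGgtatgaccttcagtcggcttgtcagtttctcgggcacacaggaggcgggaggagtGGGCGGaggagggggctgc
The windows lie at chr1:45311438-45311537 (forward strand), chr9:20815068-20815167 (reverse strand), chr3:145292372-145292471 (forward strand), chr4:47207912-47208011 (forward strand), chrX:141474077-141474176 (reverse strand) and chr3:114030440-114030539 (forward strand) in that order. RefSeq promoters matched 35 of the 44 chains, with 38 entries. Over the 250 bases before the start and on both strands, GGGCGG was found in 22 of 38 entries (57.9%) and in 32.7% of all 32851 promoters. CCAAT was found in 13 (34.2%, against 33.8% of all) and TATAAA in 5 (13.2%, against 12.4%), each motif counted also where it overlapped another. These matches describe letters and not binding.

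Collagen took the largest share of RNA in fibroblast-like cells (9784 cells). The 44 chains together made 5.62, 5.68 and 6.17% of their UMIs in replicates 1, 2 and 3, which is 5.83% ± 0.301. Tenocyte-like cells (277 cells, named from tendon markers such as Tnmd and Scx) came next with 4.18, 4.60 and 4.78%. Every fibroblast-like library lay above every tenocyte-like one, though by little. Mural-like cells (335 cells), named from markers of pericytes and vascular smooth muscle, reached 1.36% ± 0.190. Blood endothelial-like cells (638 cells) reached 0.635% ± 0.0878 and lymphatic endothelial-like cells (234 cells) 0.240% ± 0.0481. The families behind these totals differed. Fibrillar chains made 85.5% ± 0.345 of the collagen UMIs of fibroblast-like cells and 87.4% ± 0.936 in tenocyte-like cells, but 45.9% ± 0.784 in mural-like and 6.22% ± 3.01 in endothelial-like cells. The type IV chains made 64.2% ± 3.32 of the collagen UMIs of endothelial-like cells and 26.2% ± 0.494 of those of mural-like cells, against 1.25% ± 0.0685 in fibroblast-like cells. Multiplexins made 26.6% ± 1.45 in endothelial-like cells. Type VI and its relatives made 19.7% ± 0.493 in mural-like and 8.92% ± 0.163 in fibroblast-like cells.

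**Figure D1:**
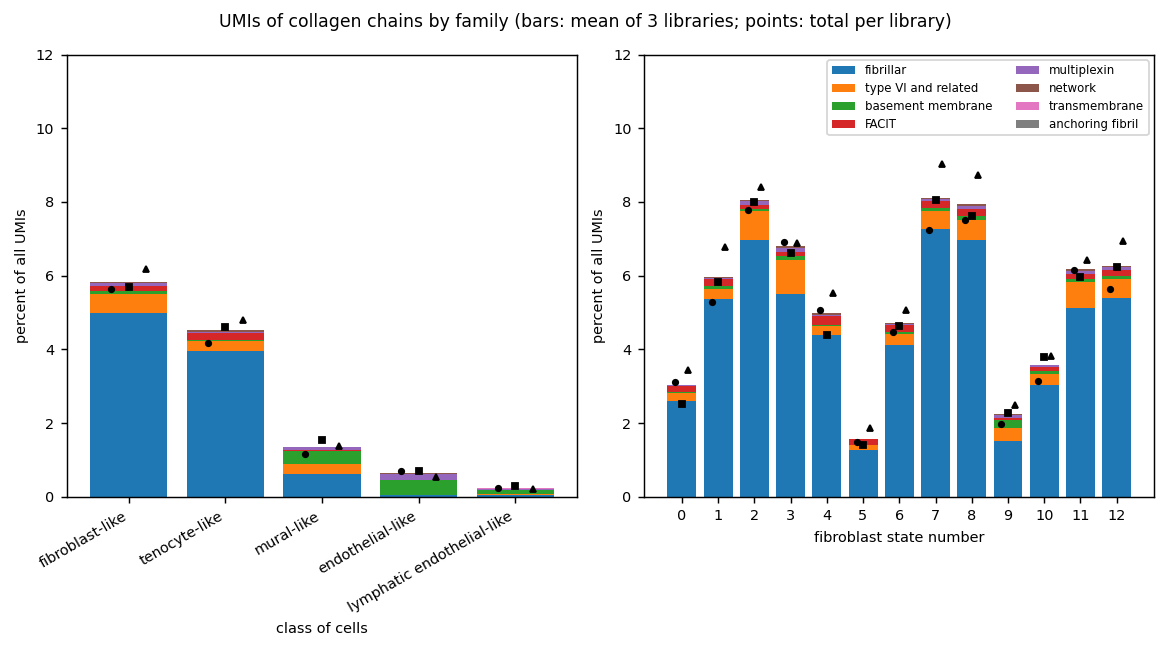
UMIs of all collagen chains as a percent of all UMIs, by class (left) and by fibroblast state (right). Bars stack the families as means of 3 libraries, and points give the total of each library (circle, square and triangle for replicates 1, 2 and 3). Fibroblast-like cells sit at 5.62 to 6.17%, and states range from 1.57% ± 0.245 in state 5 to 8.11% ± 0.899 in state 7.

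Fibroblast-like cells were compared with all other stromal-like cells (tenocyte-, mural-, endothelial-, lymphatic endothelial-, muscle fibre-, glial- and satellite or myoblast-like) by edgeR's quasi-likelihood test on summed counts, and a gene was called where the Benjamini-Hochberg adjusted p lay below 0.05 and the log2 difference was 1 or more in size. Of 41 chains that passed the filter on low counts, 17 were higher in fibroblast-like cells, where 12.9% of all 16815 genes were, and 13 were lower, where 16.7% of all genes were. The median log2 difference of the chains was 0.21, beside -0.004 over all genes. The log2 differences come from scaled library sizes (TMM), which moved them by up to 0.22 from the plain ratio of CPM in any comparison here. A signed value in parentheses after a gene is its log2 difference. SE stands for the size of the log2 difference divided by the square root of the F statistic of the quasi-likelihood test. It is worked back from the test and is not a standard error estimated by edgeR.

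Among the major fibrillar chains, Col3a1, the single chain of type III collagen, stood at 17990.0, 17698 and 19712 CPM in fibroblast-like cells and at 2132, 2554 and 1582 CPM in the other stromal-like cells. The 2 sides did not overlap in any library, with a log2 difference of 3.37 (SE 0.17) and an edgeR adjusted p of 1.22e-05. Both chains of type I collagen were higher too. Col1a1 stood at 11929, 12207 and 13727 CPM against 2605, 3583 and 2143 CPM, a log2 difference of 2.42 (SE 0.17). For Col1a2 it was 2.39 (SE 0.17). The other side mixed unlike classes, and most of its Col1a1 came from tenocyte-like cells. Col1a1 UMIs per cell were 276, 255 and 317 in tenocyte-like and 11.7, 17.1 and 16.8 in mural-like cells. In blood endothelial-like cells they were 1.07, 1.41 and 1.54. The type V chains, which sit inside type I fibrils and set their width, were also higher. Col5a3 showed the largest difference of the 3, with 1309, 1299.9 and 1336 CPM against 115, 153 and 158 CPM and a log2 difference of 3.43 (SE 0.11). For Col5a1 and Col5a2 the log2 differences were 2.75 and 2.23. Col24a1, a minor fibrillar chain, stood at 87.6, 92.9 and 106 CPM against 8.0, 11.4 and 12.1 CPM, a log2 difference of 3.40 (SE 0.10). The 3 libraries did not overlap for any of these chains.

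The type VI chains Col6a1, Col6a2 and Col6a3 were higher in fibroblast-like cells, with log2 differences of 2.47, 2.41 and 2.62, from means of 1771 ± 53.1, 1408 ± 49.3 and 1908 ± 60.6 CPM. Col6a6, a longer type VI chain, was among the 3 chains with the largest rise. It stood at 53.0, 73.7 and 87.4 CPM against 5.66, 7.46 and 9.90 CPM, a log2 difference of 3.43 (SE 0.079). Col6a5 was higher (2.13), while Col6a4 was lower, at 3.20, 4.07 and 3.32 CPM against 7.1, 14.1 and 15 CPM (-1.51, SE 0.21). Of the fibril-associated chains, Col14a1 was higher (1088 ± 70.9 against 153 ± 41.7 CPM, log2 difference 3.06, SE 0.15). Col12a1 was not called, with a log2 difference of 0.88 (SE 0.066) (edgeR adjusted p = 6.77e-05), below the size threshold, which it passed at Leiden resolution 0.6 (1.06, called). Col8a1, a short-chain network collagen of vessel walls and scars, was higher by 2.04 (SE 0.11). The basement membrane chains Col4a1 and Col4a2 ran the other way. Col4a1 stood at 489, 452 and 475 CPM in fibroblast-like cells and 1715, 1611 and 1458 CPM in the others, a log2 difference of -1.55 (SE 0.079). Col4a2, its partner, had -1.65 (SE 0.089). The multiplexins Col15a1 and Col18a1 had log2 differences of -0.30 and -0.34 and were not called (edgeR adjusted p = 0.0855 and 0.0349). The chains with the largest fall were ones that rarer cells held. Col19a1, a fibril-associated chain, had 13 UMIs in all fibroblast-like cells and 421 in the other stromal-like cells (log2 difference -7.80, SE 0.36). For Col22a1, a chain of tissue junctions such as that of muscle and tendon, these were 33 and 454 UMIs, with -6.69 (SE 0.29). For the membrane chain Col25a1 they were 27 and 155 UMIs, with -5.56 (SE 0.48). In the other stromal-like cells, 1 library carried much of the Col19a1 and Col25a1 levels: the Col19a1 mean of 13.6 CPM was 6.31 without replicate 1, and the Col25a1 mean of 6.19 CPM was 3.78 without replicate 3. Their calls held in both cases.

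**Figure D2:**
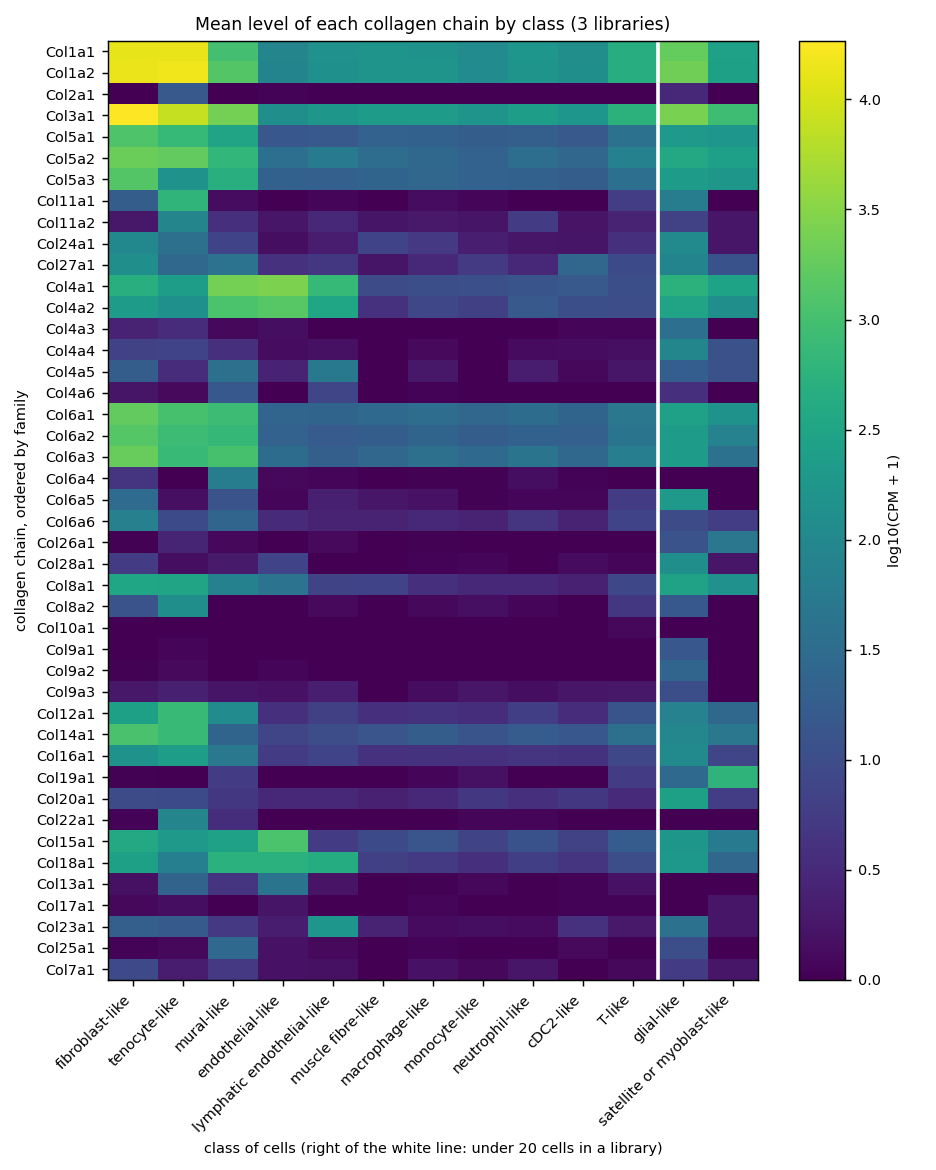
Mean level of each of the 44 chains (rows, ordered by family) in 13 classes of cells (columns), as log10(CPM + 1), over 3 libraries, with classes of under 20 cells in a library right of the white line. Fibrillar chains are brightest in the fibroblast-like and tenocyte-like columns, Col4a1 and Col4a2 in the mural-like and endothelial-like columns, and Col19a1 in the satellite or myoblast-like column (589 CPM).

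Genes that make, shape and break down collagen were read from 6 lists. In this comparison 12.9% of all genes were higher and 16.7% were lower, and the counts of each list stand beside those shares. In fibroblast-like cells, 11 of 16 genes of prolyl and lysyl modification were higher and 1 was lower than in the other stromal-like cells. P4ha3, a prolyl hydroxylase subunit, led with 91.1 ± 12 against 12.4 ± 2.43 CPM (log2 difference 3.07), then P4ha2 with 2.71, while P3h2, a prolyl 3-hydroxylase, was lower (2.57 ± 0.655 against 116 ± 14.0 CPM, -5.29). Of 8 genes of propeptide cleavage, which trims procollagen before fibrils form, 5 were higher, led by Adamts14 (3.08) and Pcolce2 (3.00), and Tll1 was lower (-2.71). Of the 5 cross-linking lysyl oxidases 4 were higher, led by Loxl1 (537 ± 12.8 against 68.0 ± 27.0 CPM, 3.24) and Loxl2 (2.44). In the list of chaperone, export and transcription genes, 3 of 7 were higher, with Creb3l1, a transcription factor (2.72), and Serpinh1, the collagen chaperone (1.71), in front, and Tmem38b was lower (-1.53). Of the 7 collagen-degrading proteases 6 were higher, led by Mmp13 (3.63) and Mmp9 (3.61). Among 9 tested receptors of 11 listed, Mrc2 (2.25) and Ddr2 (2.04) were higher and the integrin chains Itga2 (-2.0) and Itga1 (-1.51) were lower.

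Endothelial-like cells, blood and lymphatic together, were higher in Col4a1, Col4a2, Col13a1 and Col23a1. Of 40 chains tested against the other stromal-like cells, 4 were higher (14.2% of all 16503 genes were) and 26 were lower (20.7% of all genes were). The chains' median log2 difference was -4.71, beside -0.06 over all genes. Fibroblast-like cells made up 2243 of 2610, 5438 of 5812 and 2103 of 2325 of the cells on the other side. Col4a1 stood at 2432, 1982 and 1613 CPM against 508, 479 and 510.3 CPM. All endothelial-like libraries were above all others, with a log2 difference of 1.80 (SE 0.13) and an edgeR adjusted p of 2.45e-05. Col4a2 followed with 1294, 1050.5 and 884 CPM against 242, 238 and 255 CPM and a log2 difference of 1.93 (SE 0.13). The largest rise was that of Col13a1, a membrane-spanning collagen. It stood at 40.1, 30.9 and 14.6 CPM against 0.734, 0.615 and 1.45 CPM, a log2 difference of 4.84 (SE 0.46). Blood endothelial-like cells held it (54.6, 49.9 and 21.9 CPM), and lymphatic endothelial-like cells had 4 UMIs in all. Col23a1, another membrane-spanning collagen, was divided the other way. It stood at 125, 188 and 214 CPM in lymphatic endothelial-like cells and at 0.220, 1.59 and 1.82 CPM in blood endothelial-like cells, and the joint comparison gave a log2 difference of 1.48 (SE 0.10). The multiplexin Col15a1 showed the same kind of division. Its level was 1227, 1295 and 965 CPM in blood endothelial-like cells, above every library of every other class, and 5.88, 7.57 and 0.918 CPM in lymphatic endothelial-like cells. The joint log2 difference of 0.92 (SE 0.15) did not reach 1 (edgeR adjusted p = 0.00151), but was 1.13 and called without replicate 3. Col18a1, whose C-terminal fragment is endostatin, had neighbouring levels in both, with 529 ± 125 CPM in blood and 445 ± 50.8 CPM in lymphatic endothelial-like cells, and its joint difference of 0.71 (SE 0.16) was not called either. No test was made between blood and lymphatic endothelial-like cells. Fibrillar chains were far lower in endothelial-like cells. Col1a1 stood at 57.0, 177 and 96.9 CPM (log2 difference -7.13, SE 0.34), Col3a1 at 87.8, 220.1 and 154 CPM (-7.13, SE 0.29), and the differences of Col6a1, Col6a2 and Col6a3 were -6.43, -6.33 and -6.31. Col22a1 and Col19a1 had no UMI there, so that they were at least 8.43-fold and 7.51-fold lower, taking 3 counts over the group as the floor. The Col19a1 call was lost without the library block (edgeR adjusted p = 0.0844). Col11a1 had 1 UMI in endothelial-like cells and 8420 in the others. Of the cross-linking genes, 5 of 5 were lower, led by Loxl1 (-6.99) and Lox (-6.62), and of the modification genes 10 of 16 were lower, led by P4ha3 (-6.95) and Plod2 (-4.18). P3h2 was higher (91.8 ± 10.5 against 9.02 ± 1.92 CPM, 3.17), and so was Tll1 (3.62).

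Mural-like cells combined type IV with type VI and with fibrillar chains. Against the other stromal-like cells, 6 of 39 chains tested were higher (10.5% of all 16202 genes were) and 22 were lower (13.5% of all genes were), with a median log2 difference of -1.31 beside -0.09. Of the cells on the other side, 2243 of 2837, 5438 of 5992 and 2103 of 2455 were fibroblast-like. Col25a1, the membrane chain found in amyloid plaques, had the largest rise. It stood at 18.7, 21.6 and 43.6 CPM against 0.148, 0.130 and 0.141 CPM, a log2 difference of 7.39 (SE 0.45) and an edgeR adjusted p of 5.22e-09. The type VI chain Col6a4 stood at 50.7, 76.0 and 63.1 CPM against 2.88, 3.82 and 3.09 CPM, with 4.14 (SE 0.15). Col4a6, a type IV chain known from the membranes of smooth muscle, stood at 13.4, 8.91 and 19.5 CPM against 1.05, 0.690 and 0.636 CPM, with 3.97 (SE 0.42). All 3 were higher in every library without overlap. The common type IV pair was higher as well. Col4a1 stood at 1999, 2632 and 2371 CPM against 619, 509 and 522 CPM (log2 difference 1.96, SE 0.12), and Col4a2 gave 1.95 (SE 0.12). Blood endothelial-like cells had 3017, 2837 and 2090.1 CPM of Col4a1, a range that overlaps the mural-like one. Col18a1 was not called (0.82, SE 0.11). Col15a1 was uneven among mural-like libraries, with 93.5, 362 and 366 CPM, and its log2 difference of -0.78 (SE 0.26) was not called, though it passed -1 without replicate 2 (-1.20) or replicate 3 (-1.06). Type I was much lower than in the other stromal-like cells, with Col1a1 at 752, 1197 and 1013 CPM and a log2 difference of -3.74 (SE 0.12). Type III was less so, with Col3a1 at 2193, 2619 and 2306 CPM and -2.98 (SE 0.10). The type VI chains Col6a1 and Col6a2 were lower by little (-1.13 and -1.02), and Col6a3 was not called (-0.91), except without replicate 2 (-1.05). Among the largest falls, Col14a1 stood at 12.7, 41.7 and 12.8 CPM (-5.64, SE 0.24), where the mean of 22.4 CPM is 12.7 without replicate 2. Col8a2 had no UMI in mural-like cells, which is at least 21.9-fold lower, and Col11a1 had 2 UMIs. Collagen receptors were the list that stood higher, with 4 of 8 tested: Itga1 (1018 ± 72.2 against 109 ± 6.33 CPM, 3.1) and Itga10 (1.39) led, and Mrc2 (-3.60) and Itga11 (-1.99) were lower.

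**Figure D3:**
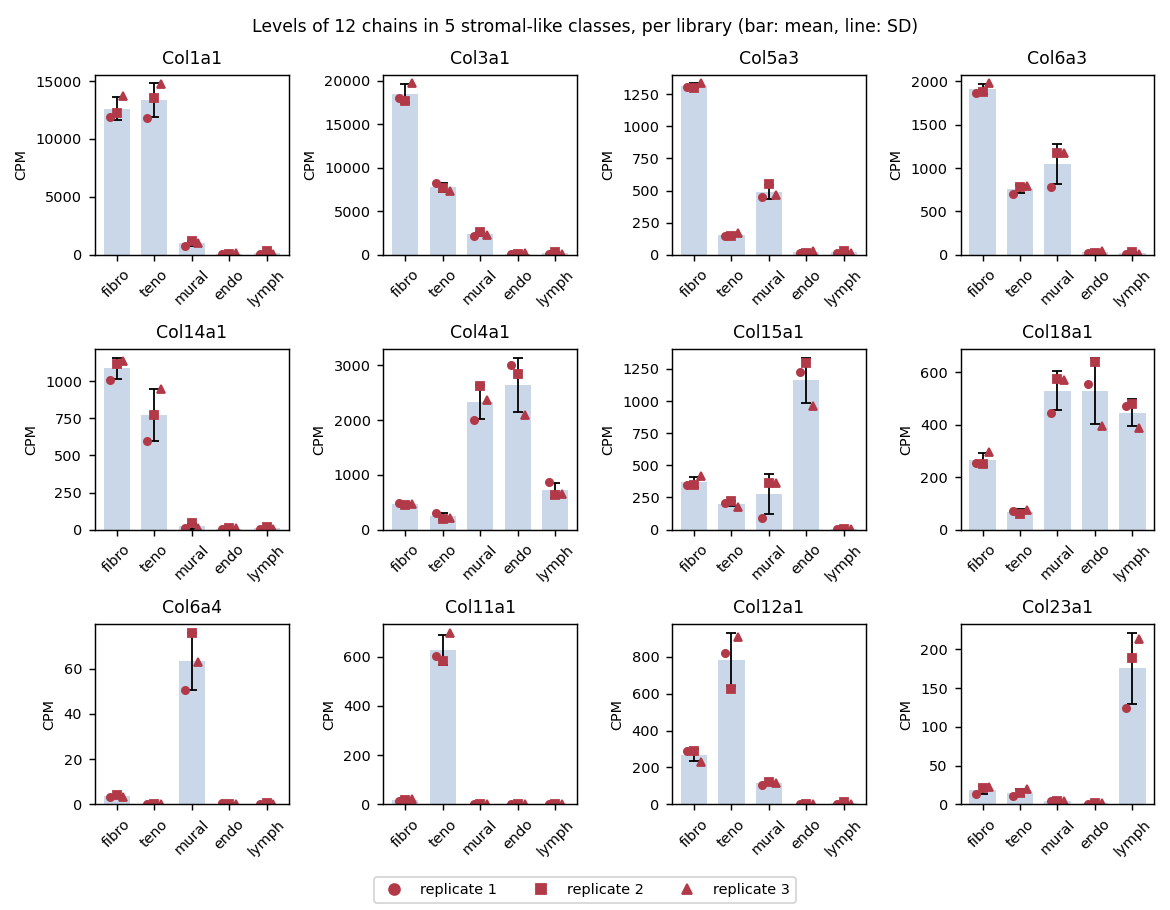
Levels of 12 chains in CPM (linear axes from 0) in fibroblast- (fibro), tenocyte- (teno), mural-, blood endothelial- (endo) and lymphatic endothelial-like (lymph) cells. Bars give the mean, lines the SD and points the 3 libraries. Col15a1 is highest in all 3 endothelial-like libraries (1227, 1295 and 965 CPM), and Col11a1 in all 3 tenocyte-like ones (603, 583 and 698 CPM).

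Tenocyte-like cells were higher than fibroblast-like cells in Col11a1, Col11a2, Col22a1, Col2a1, Col12a1, Col8a2, Col13a1 and Col26a1. This comparison with fibroblast-like cells was added after the class levels had been seen. Of 38 chains tested, 8 were higher (5.81% of all 15661 genes were) and 12 were lower (7.55% of all genes were). Col11a1, a minor chain of fibril cores, stood at 603, 583 and 698 CPM against 14.4, 17.0 and 19.7 CPM, with a log2 difference of 5.26 (SE 0.12) and an edgeR adjusted p of 1.78e-14. Its companions were rarer. Col22a1 stood at 119, 32.0 and 104 CPM against 0.141, 0.118 and 0.0757 CPM (9.29, SE 0.28), Col11a2 at 43.7, 63.3 and 157 CPM (6.51, SE 0.23), and Col2a1, the main fibrillar chain of cartilage, at 2.62, 5.58 and 34.8 CPM (8.19, SE 0.90). All 4 were higher in every library. Replicate 3, with 36 tenocyte-like cells, was the highest for Col2a1 and Col11a2, and without it their means of 14.3 and 88.1 CPM were 4.10 and 53.5. The chondrocyte list summed to 795, 788 and 1081 CPM in tenocyte-like and to 30.2, 45.1 and 39.1 CPM in fibroblast-like cells, and its part in these levels was not tested. Col16a1, a fibril-associated chain, was highest in tenocyte-like cells (259.7, 223 and 267 CPM against 142, 149 and 160.3 CPM), with a log2 difference of 0.77 (SE 0.11) that was not called. Col12a1, a fibril-associated chain of tendon and ligament, was higher too (822, 625 and 909.8 CPM against 289, 287 and 230.0 CPM, 1.58, SE 0.13), and so was Col8a2 (139, 118 and 135 CPM, 3.58, SE 0.12). Both chains of type I overlapped between the classes, with log2 differences of 0.12 (SE 0.087) for Col1a1 and 0.14 (SE 0.09) for Col1a2. Col3a1 was lower, at 8303, 7669.9 and 7277 CPM against 17990.0, 17698 and 19712 CPM (-1.21, SE 0.10). Col5a3 was lower by more, at 146, 146 and 174 CPM (-3.05, SE 0.11), while Col5a1 and Col5a2 were not called (-0.74 and -0.14), though Col5a1 was called lower at Leiden resolution 0.6 (-1.13). Col18a1 (-1.93) and Col6a3 (-1.29) were lower as well. The largest falls were in rare chains: Col6a4 had no UMI in tenocyte-like cells (at least 7.02-fold lower), Col6a5 had 4 UMIs (-5.29, SE 0.41) and Col28a1 had 3 (-3.18, SE 0.63). The ratio of Col3a1 to Col1a1 was 0.588 ± 0.106 in tenocyte-like, 1.46 ± 0.0383 in fibroblast-like and 2.46 ± 0.398 in mural-like cells. P3h2 (135 ± 29.0 against 2.57 ± 0.655 CPM, 5.69) and the receptor chain Itga2 (3.51) were higher, and P4ha2 (-1.74) and Adamts14 (-3.36) were lower. The tenocyte markers Comp, Fmod and Kera were also high in some fibroblast states (leading state 6, state 4 and state 2).

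Several chains were highest in classes too small for a test, with under 20 cells in a library, and are given as values. Satellite or myoblast-like cells (52 cells, muscle precursors) held Col19a1 at 721, 718 and 329.8 CPM. It was the highest class for Col19a1 in all 3 libraries. They also held Col26a1 at 47.7, 15.9 and 82.5 CPM, from 31 UMIs. Glial-like cells (53 cells) had the highest mean levels of the 3 type IX chains, which are known as fibril-associated chains of cartilage. Col9a1, Col9a2 and Col9a3 stood at 13.5 ± 6.09, 24.0 ± 11.3 and 9.51 ± 3.19 CPM there. These rest on 10, 17 and 7 UMIs, of 14, 39 and 323 in all named cells. Col9a3 was highest there in only 2 of 3 libraries, with mast-like cells next (7.16 CPM). Col28a1, a chain known from peripheral nerve, stood at 181, 90.8 and 128 CPM in glial-like cells, against 4.78 ± 0.839 CPM in fibroblast-like cells. Col20a1 was at 169, 0 and 613 CPM, so that replicate 3 carried most of it and replicate 2 had none. Col4a3 and Col4a4 were highest in glial-like cells as well, at 12.4, 57.2 and 36.4 CPM and at 57.7, 70.6 and 146 CPM, from 26 and 59 UMIs. Col6a5 stood at 223, 343 and 24.3 CPM there, low in replicate 3, and Col24a1 at 98.9, 141 and 91.1 CPM, a range that overlaps that of fibroblast-like cells. In glial-like cells the fibroblast list summed to 3255, 8838 and 6800.2 CPM and the macrophage list to 1265, 128 and 285 CPM, highest in replicate 1, and the part of such RNA in these levels was not tested. Col17a1 was at most 0.837 CPM in any class on average, in satellite or myoblast-like cells, from 1 UMI. Lymphatic endothelial-like cells, a larger class, were highest for Col4a5, at 42.3, 51.7 and 65.2 CPM. Col10a1, the chain of hypertrophic cartilage, had 11 UMIs in all named cells, 10 in fibroblast-like and 1 in T-like cells.

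Immune-like cells held little collagen RNA. Of 39 chains tested against stromal-like cells, 36 were lower (29.4% of all 17690 genes were) and 0 were higher by edgeR's quasi-likelihood test (19.5% of all genes were). DESeq2 gave 35 lower and 0 higher, and 37 chains had an unadjusted p under 0.05 in edgeR. The chains' median log2 difference was -5.24, beside -0.11 over all genes. Col8a1 fell furthest, at 2.58, 3.93 and 2.32 CPM against 353, 315 and 269.6 CPM (-6.74, SE 0.16), followed by Col1a2 (-6.26, SE 0.31) and Col3a1 (-6.18, SE 0.29). Col4a1 stood at 11.4, 11.1 and 8.61 CPM (-5.78, SE 0.11), Col14a1 at 11.1, 31.2 and 11.9 CPM (-5.92, SE 0.31) and Col18a1 at 3.19, 7.86 and 3.17 CPM (-5.97, SE 0.30). Col9a3, Col19a1 and Col11a2, all rare, were not called. Replicate 2 stood apart in these cells. Its Col3a1 level in immune-like cells was 387 CPM, against 182 and 168 in replicates 1 and 3, and 70.7% of its kept cells were fibroblast-like, against 39.7% and 45.7%. In macrophage-like cells the Col3a1 to Col1a1 ratio was 1.46 ± 0.111 and in neutrophil-like cells 1.54 ± 0.378, beside 1.46 ± 0.0383 in fibroblast-like cells. Among cells thinned to 2000 UMIs, 27.7% of neutrophil-like cells, which should lack collagen, had a Col1a1 UMI (median depth before thinning 5241 UMIs). For macrophage-like cells the share was 28.4% (14036 UMIs). Without thinning the shares were 49.2, 73.7 and 51.0% in neutrophil-like cells. Unthinned Col1a1 UMIs per cell were 2.08, 3.74 and 1.83 in macrophage-like and 0.693, 1.28 and 0.740 in neutrophil-like cells. Fibroblast-like cells reached 98.6% and mural-like cells 58.7% when thinned. T-like cells had more Col3a1 than macrophage-, monocyte-, neutrophil- and cDC2-like cells in all 3 libraries, with 440.3, 940.4 and 272 CPM, and markers of NK cells and innate lymphoid cells were also highest in this class. The fibroblast list summed to 218, 999 and 413 CPM in T-like, 118, 285 and 127 in macrophage-like and 131, 245 and 132 in neutrophil-like cells, and the tenocyte list to 14.1, 48.1 and 719.6 CPM in T-like cells. The part of such RNA in the T-like Col3a1 level was not tested. Their thinned share of 30.8% for Col1a1 lay near that of neutrophil-like cells. Thinning left out 75 fibroblast-like, 50 neutrophil-like, 159 macrophage-like, 26 mural-like and 17 T-like cells. The part of free RNA in these levels was not tested.

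Fibroblast-like cells fell into 14 states, of which 13 had at least 20 cells in every library. Each was compared with all other fibroblast-like cells. The same cells were clustered and then compared, so the p-values measure only whether the libraries repeat a difference. States 0 and 5 were named from the Pi16 list, with Sema3e, Pcolce2 and Dpp4 leading state 0 and Akr1c18 and Car8 leading state 5. States 2, 8 and 12 took the Lrrc15 list, where Saa3 and Cxcl5 were also among the leading genes of state 8 and Pecam1, an endothelial gene, was among those of state 12. State 9 took the Smoc2 Abca8a list. The rest kept numbers: states 1 and 7 were led by Saa3 and Mmp3, state 3 by Spp1 and Tnn, state 4 by Eln and Fmod, state 6 by Comp and Angptl1, state 10 by Cxcl10 and Ifit3, and state 11 by the proliferation genes Top2a and Mki67. Over the 13 states, 458 tests of chains gave 45 higher calls (9.83%, against 4.60% of 204337 tests of all genes) and 139 lower calls (30.3%, against 8.31%). The states share cells in each other's reference, so these tests are not independent. With each state set against the mean of the other states in 1 fit, 92 were higher and 77 lower. Which direction was the more frequent thus depended on the fit and its reference. The share of all genes called in that fit is not given here, so the 92 and 77 cannot be set beside it.

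**Figure D4:**
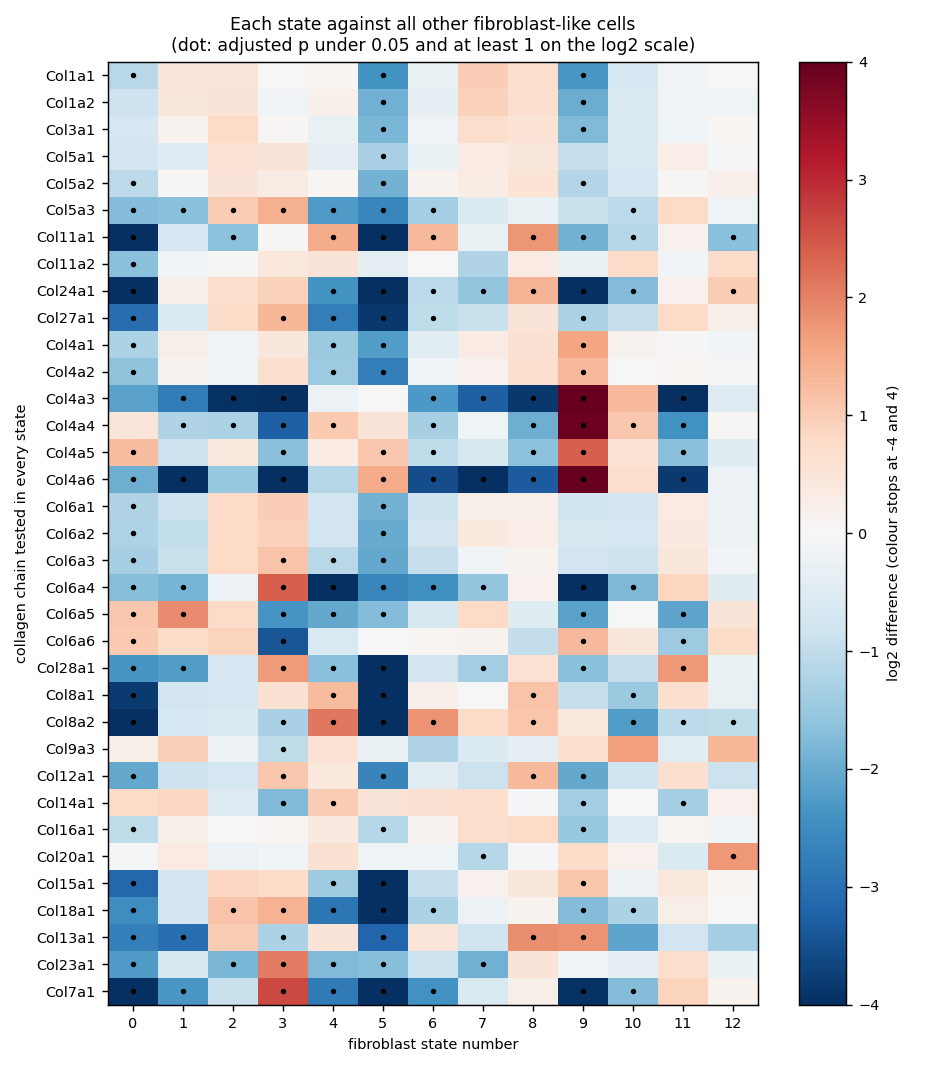
The 35 chains tested in every state (rows) by fibroblast state (columns). Colour gives the log2 difference from all other fibroblast-like cells, stopping at -4 and 4, and dots mark called differences. State 5 is low for most chains, state 3 is high for Col7a1 (2.64) and Col6a4 (2.39), and state 9 is high for the type IV chains.

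States 0 and 5 held little collagen. The chains made 1.48, 1.39 and 1.85% of the UMIs of state 5 and 3.13, 2.52 and 3.43% of those of state 0, against 8.11% ± 0.899, 8.06% ± 0.314 and 7.95% ± 0.672 in states 7, 2 and 8. Of 35 chains tested in state 5, 26 were lower (13.0% of all genes were) and 2 were higher (7.38% of all genes were). In state 0, 24 of 35 were lower (10.2% of all genes) and 3 were higher (3.89% of all genes). Col11a1 had 4 UMIs in state 5, against 15.1, 18.0 and 21.4 CPM in the other fibroblast-like cells (log2 difference -6.17, SE 0.30). Col15a1 stood at 4.25, 6.80 and 8.73 CPM against 362, 364 and 448 CPM (-5.77, SE 0.12, edgeR adjusted p = 1.3e-10). The fibrillar chains were lower too, with -2.38 for Col1a1 and -1.83 for Col3a1. In state 0 the largest falls were in Col8a2 (0.117, 0.523 and 0.356 CPM against 12.6, 12.4 and 12.2 CPM, -4.93, SE 0.25) and again Col11a1 (-4.92, SE 0.25). Both states were higher in Col4a5, the X-linked type IV chain, with 26.0, 29.5 and 43.3 CPM in state 0 (1.23, SE 0.12) and 45.3, 30.1 and 24.0 CPM in state 5 (1.08, SE 0.16). In state 5 that call was lost without replicate 1, where the difference was 0.86. Col4a6 was called higher in state 5 (3.68, 1.89 and 0.194 CPM, 1.48, SE 0.50), but only 2 of 3 libraries were higher and the call was lost with DESeq2, without the library term and without replicate 1 or 2. Col6a5, a type VI chain, was higher in state 0 (34.1, 44.9 and 84.8 CPM against 19.5, 29.8 and 33.6 CPM, 1.07, SE 0.12), and not called without replicate 3 (0.85) or at a doubled doublet rate (0.98). Fibril-associated chains kept a larger share in state 5, 10.1% ± 1.22 of its collagen UMIs against 1.34% ± 0.0830 in state 2. The modification genes were lower in state 5 in 10 of 16 cases, led by P3h2 (-3.83) and Plod1 (-2.13), the chaperone list in 3 of 7, and the proteases in 4 of 7, with Mmp13 at 0.687 ± 0.143 against 108 ± 38.9 CPM (-7.36) and Mmp9 (-5.16). Pcolce2 (795, 768 and 690.3 CPM, 2.90) and Ddr2 (1.72) were higher there.

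State 9 was higher in type IV chains and lower in type I and III, though fibrillar chains still made 67.0% ± 1.28 of its collagen UMIs. Its collagen share was 1.98, 2.27 and 2.50%, and basement membrane chains made 9.73% ± 1.92 of its collagen UMIs, against 1.25% ± 0.204 in state 1. Of 36 chains tested, 10 were higher (8.06% of all genes were) and 15 were lower (9.30% of all genes were). All 6 type IV chains were among those higher. Col4a3 stood at 56.1, 30.6 and 17.4 CPM against 0.782, 0.184 and 0.525 CPM, with 308 UMIs in state 9 and 118 in all other fibroblast-like cells. Its log2 difference was 6.13 (SE 0.33), with an edgeR adjusted p of 2.22e-09. Col4a6 stood at 18.9, 19.6 and 7.47 CPM against 0.331, 0.227 and 0.175 CPM (5.86, SE 0.37). Col4a4 and Col4a5, the partners of Col4a3 in the specialised type IV network of kidney and lung, were at 95.4, 67.3 and 33.3 CPM (3.93, SE 0.27) and 99.0, 92.4 and 60.4 CPM (2.41, SE 0.16). The common pair Col4a1 and Col4a2 was higher as well, at 1505, 1277 and 1373 CPM (1.57, SE 0.10) and 592, 525 and 609.6 CPM (1.31, SE 0.10). No library of state 9 overlapped the other fibroblast-like cells for these 6 chains, though Col4a3 and Col4a4 were uneven, highest in replicate 1 and lowest in replicate 3. Cells of other classes that hold type IV chains were looked for by their markers. The endothelial list summed to 13.6, 27.4 and 17.4 CPM in state 9 (7358, 6444 and 6967 in endothelial-like cells), the mural list to 103, 115 and 125 CPM (11089, 11602 and 10370.0 in mural-like cells) and the glial list to 40.7, 45.7 and 30.2 CPM (10277, 9558 and 7092 in glial-like cells). State 9 also had the lowest median depth of the 13 states, 13522 UMIs per cell. The part of such cells or of depth in the type IV levels was not tested. Col15a1 (649, 870.0 and 909 CPM, 1.10, SE 0.11), Col6a6 (1.30), Col13a1 (1.78) and Col17a1 (3.06), a membrane chain of epithelial anchoring, were the others that were higher. Of these, Col13a1 and Col17a1 were rare, with means of 1.90 and 1.75 CPM in state 9. Col17a1 passed the filter on low counts in only 2 states. Col24a1 was lowest relative to the rest, at 0.715, 1.61 and 0.934 CPM against 90.8, 94.9 and 111 CPM (-6.59, SE 0.21). Col6a4 had 1 UMI in state 9 (-5.12, SE 0.75). Col1a1 had a log2 difference of -2.32 and Col3a1 one of -1.77, both called lower. Of the modification genes 4 of 16 were lower (led by P4ha3, -2.96, and Plod2, -1.26) and 1 was higher (Colgalt2, 4.03), and Lox (109, 98.5 and 58.2 CPM, -2.17) was the 1 of 5 cross-linking genes that was lower.

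**Figure D5:**
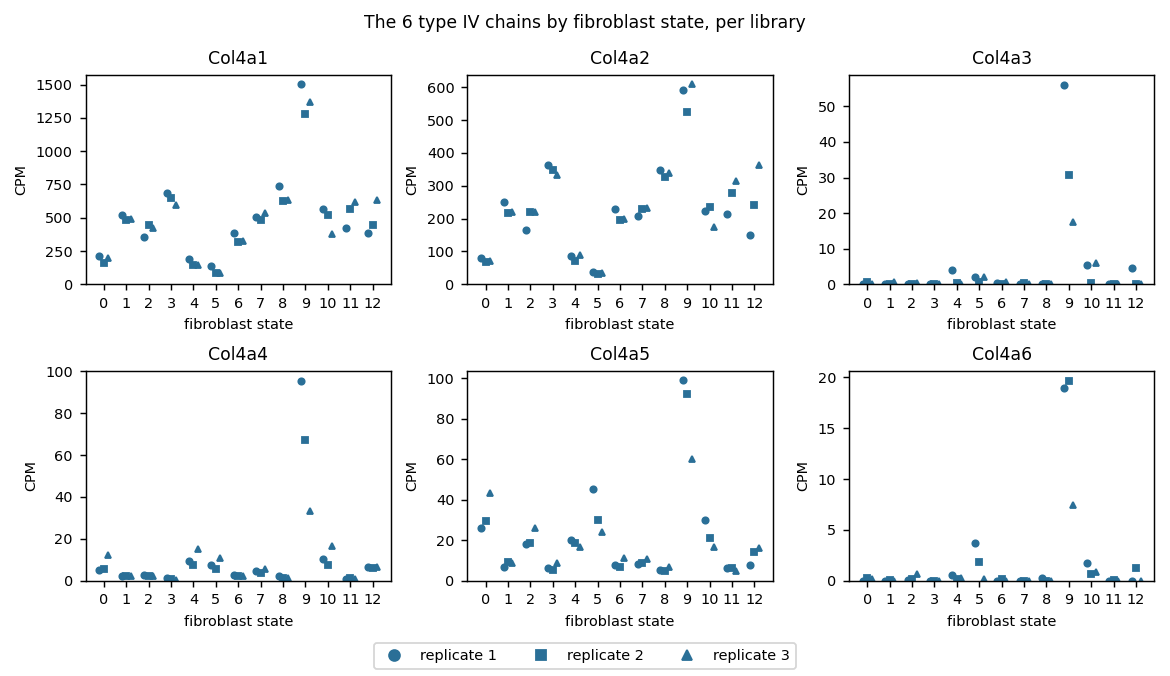
The 6 type IV chains by fibroblast state in CPM, with 1 panel per chain and 1 point per library. In every panel the 3 libraries of state 9 are the highest of their replicate, from 18.9, 19.6 and 7.47 CPM for Col4a6 to 1505, 1277 and 1373 CPM for Col4a1.

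State 9 is part of every other state's reference, so its type IV UMIs enter the other states' comparisons. Col4a3 was called lower in 7 states and Col4a6 in 7. In states 3 and 7 Col4a6 had no UMI, which is at least 14.7-fold and 3.69-fold lower than the rest. Col4a3 was lower in states 2 (-3.95, SE 0.61), 3 (-6.40, SE 0.59), 7 (-3.25, SE 0.79), 8 (-3.86, SE 0.54) and 11 (-4.84, SE 0.74). Col4a6 was lower in states 1 (-4.43, SE 0.79), 6 (-3.53, SE 0.97), 8 (-3.32, SE 0.78) and 11 (-3.81, SE 0.88). Set against the mean of the other states, these named calls of Col4a3 were lost in states 2, 7, 8 and 11, and those of Col4a6 in states 1, 3, 6, 7, 8 and 11. The Col4a6 call was also lost in state 6 with DESeq2 or without replicate 1, and in states 7 and 8 without replicate 2.

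State 3, led by Spp1, had as many higher chains as state 9. Of 37 chains tested, 10 were higher (5.67% of all genes were) and 10 were lower (12.9% of all genes were). Col7a1, the chain of anchoring fibrils, stood at 24.8, 26.0 and 26.0 CPM against 2.62, 4.05 and 4.95 CPM, a log2 difference of 2.64 (SE 0.14) and an edgeR adjusted p of 7.03e-06. Col22a1 was also called, from 19 UMIs (0.537, 0.341 and 0.262 CPM, 2.52, SE 0.48). Col6a4 (2.39), Col23a1 (2.05), Col28a1 (1.71), Col5a3 (1.43), Col18a1 (1.38), Col27a1 (1.33), Col6a3 (1.13) and Col12a1 (1.09) made up the rest. State 11 had the next highest mean level of Col7a1, Col6a4, Col23a1, Col5a3 and Col27a1, though none of these was called higher there. Mean Col5a3 was 2384 CPM in state 11 and 2880 CPM in state 3. Mean Col28a1 was higher in state 11 (15.6 CPM) than in state 3 (11.8 CPM). State 2 came next for Col18a1 and Col6a3, and state 8 was highest for Col12a1. Type VI and its relatives were 13.6% ± 0.554 of the collagen UMIs of state 3, against 4.61% ± 0.281 in state 1. Their share was 11.7% ± 0.261 in state 11 and 15.5% ± 0.838 in state 9. Col14a1 (-1.76) and Col6a6 (-3.41) were lower in state 3, and both were also called lower in state 11. The median depth of state 3 was 44936 UMIs per cell, second to that of state 11. Of 8 propeptide cleavage genes 3 were higher, led by Tll1 (41.4, 37.5 and 37.5 CPM, 2.04) and Adamts14 (1.64), and Pcolce2 was lower (-4.92). Mmp13 (1.87) and Mmp9 (1.79) were higher and Mmp8 (-2.54) and Mmp2 (-2.02) lower.

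States 4, 6 and 8 shared a rise of Col11a1 and Col8a2, both also high in tenocyte-like cells. The tenocyte list, which summed to 20496, 19496 and 20401 CPM in tenocyte-like cells, summed to 1203, 1209 and 1159 CPM in state 4, 1908, 1997 and 1625 in state 6 and 687, 753 and 683 in state 8, against 31.9, 46.1 and 21.4 in state 0 and 8.49, 11.1 and 5.82 in state 5. States 2, 3, 7, 11 and 12 lay between 638 and 1224 CPM, and the part of these genes in the rises was not tested. In state 4, led by Eln, 5 of 35 chains were higher (4.34% of all genes were) and 13 lower (7.21% of all genes were). Col8a2 stood at 25.5, 39.8 and 42.7 CPM against 9.89, 8.79 and 9.08 CPM (2.10, SE 0.14) and Col11a1 at 42.9, 32.4 and 40.3 CPM against 11.8, 15.7 and 18.3 CPM (1.49, SE 0.14). Col6a4 (-4.0, SE 0.45, 5 UMIs) and Col18a1 (39.7, 30.1 and 33.8 CPM against 275, 271 and 311 CPM, -2.90, SE 0.088) were the lowest there. In state 6, 2 of 35 chains were higher (2.51% of all genes were) and 10 lower (5.89% of all genes were). The higher ones were again Col8a2 at 36.5, 29.5 and 34.2 CPM (1.79, SE 0.10) and Col11a1 at 41.2, 39.2 and 25.8 CPM (1.28, SE 0.16), with Col6a4 lower (-2.45, SE 0.46). With each state set against the mean of the others the Col6a4 difference was -1.05 and not called (edgeR adjusted p = 0.109). In state 8, 6 of 35 were higher (1.52% of all genes were) and 4 lower (5.71% of all genes were), with Col11a1 at 27.0, 48.9 and 66.7 CPM (1.76, SE 0.16). Its Col13a1 (1.03, 0.791 and 3.58 CPM, 1.85, SE 0.42) rested on replicate 3, without which it was 1.27 and not called. Col24a1 (1.36), Col12a1 (1.31), Col8a1 (1.15) and Col8a2 (1.12) were higher too.

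For the remaining states, the counts of higher and lower chains are of 35 tested, with the share of all genes in parentheses. In state 1, 1 chain was higher (4.28% of all genes were) and 8 lower (6.93%), and in state 2 the counts were 2 (1.81%) and 4 (7.88%). In state 10 they were 1 (3.79%) and 8 (2.75%), in state 11 they were 1 (6.74%) and 8 (9.36%), and in state 12 they were 2 (7.80%) and 2 (3.54%). State 1 had more Col6a5, at 51.6, 83.5 and 103 CPM against 18.4, 22.7 and 30.3 CPM (1.90, SE 0.078), and less Col13a1 (-3.03, SE 0.71, from 2 UMIs). The Col13a1 call was lost without replicate 2 (edgeR adjusted p = 0.0636) and against the mean of the other states (-2.17, adjusted p = 0.0848). State 2 had more Col18a1, at 466, 476 and 523 CPM against 223, 215 and 255 CPM (1.14, SE 0.039), and Col5a3 at 2225, 2359 and 2187 CPM (1.02, SE 0.042), and less Col23a1 (5.69, 5.38 and 6.18 CPM, -1.83, SE 0.13). The Col5a3 call was lost without replicate 2 (0.96) and without the filter on low counts (0.99). State 7 had the highest mean collagen total, but in replicate 1 its 7.24% lay below the 7.78% of state 2 and the 7.51% of state 8. In state 7, edgeR's quasi-likelihood test called 0 of 35 chains higher (1.78% of all genes were) and 7 lower (13.5%). DESeq2 also called 0 higher, and 27 had an unadjusted p under 0.05 in edgeR in either direction. Its type I chains were the highest of the states in mean level, with Col1a1 at 18309, 20541 and 23866 CPM. State 10, led by interferon-induced genes, had more Col4a4 (10.6, 7.39 and 16.7 CPM against 6.87, 4.32 and 6.05 CPM, 1.09, SE 0.22, not called without replicate 3) and less Col8a2 (2.12, 2.89 and 1.67 CPM, -2.23, SE 0.25) and Col6a4 (-1.81, SE 0.41, not called without replicate 2 or 3 or against the mean of the other states). State 11, led by proliferation genes, had more Col28a1, at 11.0, 16.0 and 19.7 CPM against 3.82, 5.05 and 3.48 CPM (1.74, SE 0.20). Mean Col5a3 in state 11 was 2384 CPM, above every library of state 2, but was not called higher. State 12 had more Col20a1 (39.6, 23.2 and 33.5 CPM against 9.12, 8.97 and 7.34 CPM, 1.72, SE 0.21) and Col24a1 (218, 184 and 220.2 CPM, 1.01, SE 0.11), and less Col11a1 (7.55, 4.63 and 6.48 CPM, -1.68, SE 0.28) and Col8a2 (9.44, 4.63 and 5.40 CPM, -1.02, SE 0.30). The state 12 calls of Col24a1 and Col8a2 were lost without replicate 1 and without replicate 2, respectively, and both at a doubled doublet rate. Col24a1 was also lost without the filter on low counts, and Col8a2 with DESeq2. Against the mean of the other states Col11a1 (-0.69, edgeR adjusted p = 0.481) and Col8a2 (-0.19) were not called.

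The levels of several pairs of chains were compared across the states. Levels were taken as log2(CPM + 1), and the 13 states share libraries and differ in depth. Pearson's r over the states was 0.994, 0.995 and 0.995 for Col1a1 and Col1a2 in replicates 1, 2 and 3. For Col6a1 and Col6a2 it was 0.997, 0.992 and 0.994, and for Col4a1 and Col4a2 it was 0.97, 0.986 and 0.98. Chains of different collagen types gave r over a wide range. It was 0.981, 0.975 and 0.960 for Col1a1 and Col3a1, 0.978, 0.976 and 0.963 for Col5a3 and Col6a3, 0.708, 0.741 and 0.613 for Col1a1 and Col6a1, 0.081, 0.376 and 0.266 for Col1a1 and Col4a1, and 0.210, -0.031 and 0.057 for Col1a1 and Col14a1. Within type V it was 0.899, 0.918 and 0.873 for Col5a1 and Col5a2 and 0.850, 0.886 and 0.857 for Col5a1 and Col5a3. Col4a3 and Col4a4 gave 0.923, 0.883 and 0.646, and Col4a5 and Col4a6 gave 0.861, 0.819 and 0.698. Mean Col4a3 was 34.7 CPM in state 9 and 3.83 CPM in the next state, and mean Col4a6 was 15.4 and 1.92 CPM. How far the r values of these pairs rest on state 9 was not tested. Each of the 3 type IV pairs lies head to head on opposite strands, with gene starts 21 bases apart for Col4a1 and Col4a2, 72 for Col4a3 and Col4a4, and 1309 for Col4a5 and Col4a6 (GENCODE vM21). Values of chains that share exons with another gene are less certain: Col3a1, Col20a1 and Col7a1 overlap a gene on the same strand and 10 chains overlap 1 on the other strand.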

How the data were processed

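Single-cell 10x 3′ (version 3.1) gene expression was read in 3 libraries of 1 group. The authors deposited matrices of UMI counts (whole numbers per gene and cell barcode). Per the file headers the software was cellranger 7.0.0, whereas Cell Ranger 6.1.2 stands in the submitters' processing notes. Genome build and intron setting: not given in the sources used here.

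Barcodes were kept from 500 UMIs and 200 genes upward, with mitochondrial UMIs up to 20%. Doublets were called with Scrublet at 0.8% per 1000 barcodes, and 295, 598 and 200 cells were removed. Cells were clustered (scanpy 1.11.5, Leiden resolution 1.0), and clusters that the marker lists could not name were each clustered again at the same resolution. After both steps there were 62 clusters, of which 27 (1423 cells) stayed unnamed. Fibroblast-like cells were clustered again (resolution 0.8) into states. No step used a collagen chain or a pathway gene. CPM was computed from the deposited counts summed per library and class. Tests were run with edgeR 4.0.16 (TMM, filterByExpr, library as a block, quasi-likelihood, Benjamini-Hochberg over all genes tested), and DESeq2 1.42.0 was an alternative. The scripts were tested on simulated data.

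The members, marker lists and pathway lists were chosen with earlier results of these data known. The genes named by rule are the 3 called chains of largest log2 difference in each direction per class comparison, 16 fixed chains (types I, III, V and VI, Col4a1, Col4a2, Col8a1, Col12a1, Col14a1, Col15a1 and Col18a1), the 2 called chains of largest difference in each direction per state, chains whose highest class is not fibroblast-like, and 2 genes in each direction per pathway list. Other chains were named after their values were seen. Alternatives were other size factors, no filter on low counts, stricter cell filters, other clusterings, background subtraction and leaving out each library. Intervals between libraries rest on 3 values, and counts are of captured molecules.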

Additional observations from a re-analysis of the deposited data

How the results depend on the processing

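Of 1761 recomputed log2 differences of 147 named values, 1713 kept their direction and their side of the threshold, 40 lost the call, 7 gained it and 1 reversed. Levels are not part of these counts. The reversed value was Col8a1 in tenocyte-like against fibroblast-like cells, not called in either case, which was 0.16 without replicate 2. It ranged from -0.39 to 0.16 when each library was left out. For 117 of the named values the direction and the call did not change under any alternative run. Over the fibroblast states, the 45 higher and 139 lower calls of chains became 92 and 77 with all states in 1 fit, where each state is set against the mean of the other states, and lower calls were 77 at Leiden resolution 0.5, which makes fewer states. Leaving out each library gave 38 to 44 higher and 126 to 139 lower calls over the states, 17 to 18 and 13 to 14 in fibroblast-like, 4 to 5 and 25 to 27 in endothelial-like, 5 to 6 and 21 to 25 in mural-like, 0 and 36 to 37 in immune-like, and 7 to 8 and 12 to 13 in tenocyte-like cells. Without the replicate block, which pairs the classes of 1 library, the counts were 44 and 134 over the states, 17 and 13, 4 and 26, 5 and 21, 0 and 36, and 8 and 12 in the same order. The shares of all genes called in these alternative runs are not given here, so the counts describe the chains alone. Chains with few UMIs, such as Col4a3, Col4a6, Col13a1 and Col22a1 in fibroblast states, rest on counts that limit the size of their differences. The cause of the changed calls was not tested.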
